A study of Mus musculus with 88 samples.

Results

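The comparison described here sets isoproterenol (ISO) against prostaglandin E2 (PGE2), each given alone to RAW 264.7 cells, over 1, 2 and 4 h together. RAW 264.7 is an established mouse macrophage line that grew out of a virus-induced tumour, so all samples come from 1 line. Cells received 50 nM ISO or 10 µM PGE2, and their RNA was hybridised against that of time-matched cells in plain medium on 2-colour custom Agilent oligonucleotide arrays. Each set consisted of 2 arrays with the dyes swapped, whose ratios were averaged into 1 value per gene. A set was used where the same set number existed for both ligands at a time, which gave sets 1 and 2 at 1 h and sets 1 to 3 at 2 and at 4 h. The comparison therefore held 8 sets a side, or 32 of the 88 arrays and 16 of the 44 sets in the series. The other groups of the series received LPS at 100 ng/ml, alone (there the labels also list 100 pM lipid binding protein) or together with ISO or PGE2 (for which they list none), and the combinations at the same times and sets (32 arrays) enter below. Each ligand was used at 1 concentration, and the concentrations differ, so every difference given here is between these 2 treatments and not between receptors at equal occupancy. Nothing in the labels says that the sets are separate cultures. A p-value here therefore measures only spread about the fitted model, after time and set number are taken out. That spread may be technical. Tests against medium pool it over both ligands and count the 16 set means as separate, although same-numbered sets deviated together. Their SE can thus be smaller than the plain spread of the sets would give.

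ISO is a synthetic catecholamine that activates beta-adrenergic receptors, and PGE2 is a lipid mediator that acts on the prostanoid receptors encoded by the Ptger genes. The beta-adrenergic receptors and the products of Ptger2 and Ptger4 couple to the stimulatory G protein, which turns on adenylyl cyclase and raises cyclic AMP. Cyclic AMP activates protein kinase A, and its target CREB binds the cAMP response element in promoters and drives early genes such as Nr4a1, Crem and Pde4b. In macrophages this pathway is known for lowering the output of several inflammatory mediators and for raising others. The receptors of both ligands share this pathway, and the comparison asks which genes responded differently to them.

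The cAMP response element has the letters TGACGTCA, and its core reads TGACG on one strand and CGTCA on the other. Promoters of 300 bases from RefSeq (build GRCm38.p6, 250 bases before to 50 after the start) were searched for both, the core on either strand, with the core also found inside the whole element. The whole element was present in 588 of 32851 promoters in the table (1.79%) and the core in 6837 (20.8%). Of the 596 genes that were higher for the mean of both ligands (test below), 482 had a promoter there, and 212 of their 660 promoters (32.1%) held the core. For the 606 lower genes, 498 had a promoter, and the core was present in 174 of 643 (27.1%). Among all genes tested with a promoter (8346), 2814 of 10543 promoters (26.7%) held it. The whole element was present in 18 promoters of the higher genes (2.73%), in 13 of the lower genes (2.02%) and in 235 of all genes tested (2.23%). Among genes with a mean response of at least 0.5 log2 the order turned, with the core in 11 of 34 promoters of higher genes (32.4%) and in 12 of 24 of lower genes (50%). A set of 3 named genes is shown, with the element and its cores in capitals. Plk2 was picked for the whole element. Pde4b and Nr4a1 were picked as cAMP and CREB targets that hold the core and were higher with both ligands. Of the other named genes that moved with both ligands, Klf15, Odc1, Cd33, Ctla2b, Atf3, Rgs2 and Lrrc17 also had a core. Il1b, Cytip and Ptger4 had a promoter without it.
Plk2: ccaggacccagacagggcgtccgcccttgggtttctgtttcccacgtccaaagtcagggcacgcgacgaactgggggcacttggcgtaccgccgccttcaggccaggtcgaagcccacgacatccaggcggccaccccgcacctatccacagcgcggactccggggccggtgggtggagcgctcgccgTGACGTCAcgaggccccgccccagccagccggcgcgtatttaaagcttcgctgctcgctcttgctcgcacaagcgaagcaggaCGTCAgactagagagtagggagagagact
Pde4b: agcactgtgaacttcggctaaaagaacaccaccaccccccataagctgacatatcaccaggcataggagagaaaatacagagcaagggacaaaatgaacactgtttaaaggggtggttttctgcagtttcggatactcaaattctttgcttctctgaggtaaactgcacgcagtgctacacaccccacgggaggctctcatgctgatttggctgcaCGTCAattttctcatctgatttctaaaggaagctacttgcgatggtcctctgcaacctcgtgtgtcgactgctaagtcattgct
Nr4a1: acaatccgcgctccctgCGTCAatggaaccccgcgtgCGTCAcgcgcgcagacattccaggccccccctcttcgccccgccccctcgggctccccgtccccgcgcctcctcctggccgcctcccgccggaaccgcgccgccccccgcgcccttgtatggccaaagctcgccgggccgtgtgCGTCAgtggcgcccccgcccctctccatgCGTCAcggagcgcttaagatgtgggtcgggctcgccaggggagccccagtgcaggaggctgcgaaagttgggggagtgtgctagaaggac
The Plk2 promoter (chr13:110394794-110395093, plus strand) was the single one among the named genes with the whole element, which began 62 bases before the start. In the promoter shown for Pde4b (chr4:102421305-102421604, plus strand), 1 of 4 promoters of this gene in the table, 1 core began 34 bases before the start. The Nr4a1 promoter (chr15:101266596-101266895, plus strand) held 4 cores, the outermost beginning 233 bases and the innermost 40 bases before the start. Plk2 was lower with both ligands while Pde4b and Nr4a1 were higher, as the values below show. A match is a description of the sequence and not evidence of binding.

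Over the 32 arrays 10474 genes were measured, and between 10.9% and 37.2% of a used array's values were exactly 0. The median was 28.4% for ISO, with the 2 arrays of its unmatched 1 h set 3 included, and 27.0% for PGE2. The direction of the deposited ratios is likely and not stated: after turning each array to treated over medium by its dye labels, the median of 19 LPS-induced genes was above 0 on 18 of 18 arrays of LPS alone (2.00 to 3.34 log2). The 2 arrays of a dye-swap pair correlated at -0.59 (PGE2, 2 h set 1) to 0.36 across all genes, below 0 in 8 of 16 pairs, and at 0.69 to 0.98 across the 63 genes with a called mean response of at least 0.5. The 63 genes were chosen by their mean on these same arrays, so the second range is a description and not a check. A set stood apart at 1 h: ISO set 2 had a median response over those 63 genes of 0.38, against 0.89 in ISO set 1 and 0.65 in PGE2 set 2. Over the 1202 genes called for the mean of both ligands it did not stand apart (0.136, against 0.132 in ISO set 1 and 0.106 in PGE2 set 2). Of 11 measured macrophage markers, 1 was higher and 1 lower with ISO and 1 was higher with PGE2 (9.09% each). Of 22 measured markers of other cell types the endothelial receptor gene Kdr alone (4.55%) was called, higher with both (0.50 with ISO, 0.35 with PGE2). Over all genes tested, 4.1% were called higher and 3.9% lower with ISO, and 2.16% higher and 1.78% lower with PGE2. With PGE2 the call of Kdr was lost without 1 h set 1, 4 h set 3 or any of the 3 sets at 2 h.

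The genes that led the response were moved in the same direction by both ligands, as the rule that named them requires, and they cover cyclic AMP breakdown, G protein regulators, adhesion and inflammation. With limma and Benjamini-Hochberg adjustment over all genes, 838 genes passed an adjusted p of 0.05 with ISO (8% of those tested; 429 higher, 4.1%, and 409 lower, 3.9%). PGE2 changed 412 genes (3.93%), 226 higher (2.16%) and 186 lower (1.78%). The mean of both ligands, tested in the same fit, passed for 1202 genes (11.5%), 596 higher (5.69%) and 606 lower (5.79%). Same-numbered sets of the 2 ligands deviated together (correlations of 0.186 to 0.600). With each time and set as a block of its own, 1384 genes passed with ISO, 700 with PGE2 and 1840 for the mean of both. That block takes spread shared by both ligands of a set out of the error, so these tests against medium leave out differences between sets. The larger counts are therefore not the stricter ones. The counts of the first fit moved with single sets. Without 1 h set 1 the ISO count was 1361, and without 4 h set 3 it was 518. Without 1 h set 2 it was 1024 for ISO and 569 for PGE2, and without 2 h set 1 it was 929 and 446. The count for the mean of both was 1477 without 1 h set 2 and 1425 without 2 h set 1. Leaving out a whole set number gave 310 (set 3) to 1722 (set 1) genes for ISO and 150 (set 3) to 395 (set 1) for PGE2.

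**Figure D1:**
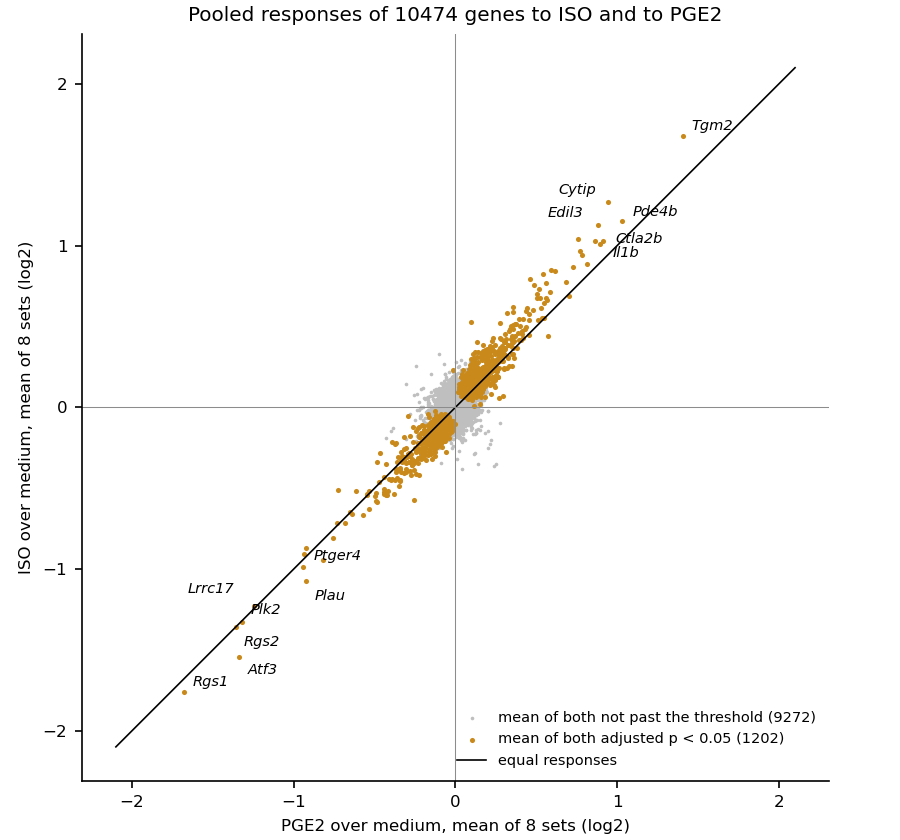
Mean log2 ratio over medium of 8 sets for ISO (vertical) and PGE2 (horizontal) for 10474 genes; ochre points are the 1202 genes past the threshold for the mean of both, grey points the other genes, and the line marks equal responses. The genes farthest from 0, from Rgs1 at the lower left to Tgm2 at the upper right, lie near the line.

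A group of 6 genes led those higher with both ligands. Tgm2, which encodes the crosslinking enzyme transglutaminase 2, lay between 1.01 and 2.31 log2 over medium in the 8 ISO sets (median 1.65). With PGE2 Tgm2 lay between 0.45 and 2.02 (median 1.52). In every set of both ligands Tgm2 was above medium, and the ranges overlapped over most of their width. The pooled Tgm2 level was 1.67 with ISO (SE 0.065, adjusted p = 1.42e-08) and 1.41 with PGE2 (adjusted p = 1.30e-07), or 3.19-fold and 2.65-fold, and it was highest at 4 h with both (2.01 and 1.85). The SD of its 8 ISO sets was 0.477, time differences included, and the SE leaves much of that spread out. Cytip encodes a protein that binds cytohesin and regulates leukocyte adhesion. Its ISO sets ran from 0.45 to 1.96 (median 1.33) and its PGE2 sets from 0.45 to 1.33 (median 0.98). The lowest Cytip value with ISO was 1 h set 2. Pde4b, a phosphodiesterase that breaks down cyclic AMP, ran from -0.11 to 1.98 with ISO (median 1.30) and from 0.18 to 1.91 with PGE2 (median 1.15). Pde4b was highest at 1 h with PGE2 (1.75) and at 2 h with ISO (1.61), and lowest at 4 h with both (0.43 with ISO, 0.62 with PGE2).

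Edil3, a secreted integrin ligand known for restraining leukocyte adhesion, had the widest spread of the 6. At 1 h Edil3 averaged 0.06 with ISO and 0.11 with PGE2, at 2 h 2.25 and 1.68, and at 4 h 0.72 and 0.59. Single Edil3 sets at 2 h reached 3.40 with ISO and 2.60 with PGE2, both in set 3, and the lowest 2 h values were both in set 2 (1.05 and 0.40). The cysteine protease inhibitor gene Ctla2b ran from 0.44 to 1.39 with ISO (median 1.08) and from 0.68 to 1.04 with PGE2 (median 0.93). Il1b, which encodes the inflammatory cytokine interleukin 1 beta, ran from 0.07 to 1.65 with ISO (median 1.23) and from 0.15 to 1.86 with PGE2 (median 0.87). Il1b averaged 1.53 with ISO and 1.67 with PGE2 at 1 h, and 0.26 and 0.51 at 4 h. For none of these genes did the ISO and PGE2 ranges separate, but each range spans 3 times. In matched sets ISO was higher in 7 of 8 for Cytip, Edil3 and Ctla2b, in 6 for Tgm2, in 4 for Pde4b and in 3 for Il1b.

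For the 6 leading genes on the lower side the ISO and PGE2 ranges, again over 3 times, also overlapped. In matched sets ISO was lower in 7 of 8 for Atf3, in 6 for Rgs2 and Plau, and in 4 for Rgs1, Plk2 and Lrrc17. Rgs1, which encodes a regulator that shortens signalling by G proteins, ran from -2.80 to -0.78 with ISO (median -1.69). With PGE2 Rgs1 ran from -2.51 to -0.77 (median -1.53), and its pooled fall was 3.39-fold with ISO and 3.20-fold with PGE2. The related regulator Rgs2 ran from -1.94 to -0.83 with ISO and from -1.83 to -0.81 with PGE2, with medians of -1.35 and -1.40. Both regulators were below medium in 8 of 8 sets of each ligand. Atf3, a stress-induced bZIP repressor, ran from -2.45 to -0.03 with ISO (median -1.74) and from -2.04 to -0.54 with PGE2 (median -1.39), and the ISO value nearest to 0 was 1 h set 2. Plk2, a polo-like kinase of the early response, ran from -2.45 to -0.50 with ISO (median -1.28) and from -2.13 to -0.71 with PGE2 (median -1.34). For Lrrc17, a secreted leucine-rich repeat protein, medians were -1.27 and -1.30, and for Plau, the urokinase plasminogen activator, -1.03 and -0.92. The ISO sets of Plau spread more widely (-1.60 to -0.27) than its PGE2 sets (-1.11 to -0.76), and its 3 probes ran from -1.43 to -0.51 with ISO. Plk2 and Rgs2 were lowest at 1 or 2 h and closer to medium at 4 h with both ligands (Plk2 -0.67 and -0.87, Rgs2 -0.91 and -0.93), while Lrrc17 with PGE2 was lowest at 4 h (-1.53). All 12 leading genes passed the threshold with each ligand, as the rule that named them requires. The largest adjusted p was that of Edil3 with PGE2 (0.0283, limma).

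**Figure D2:**
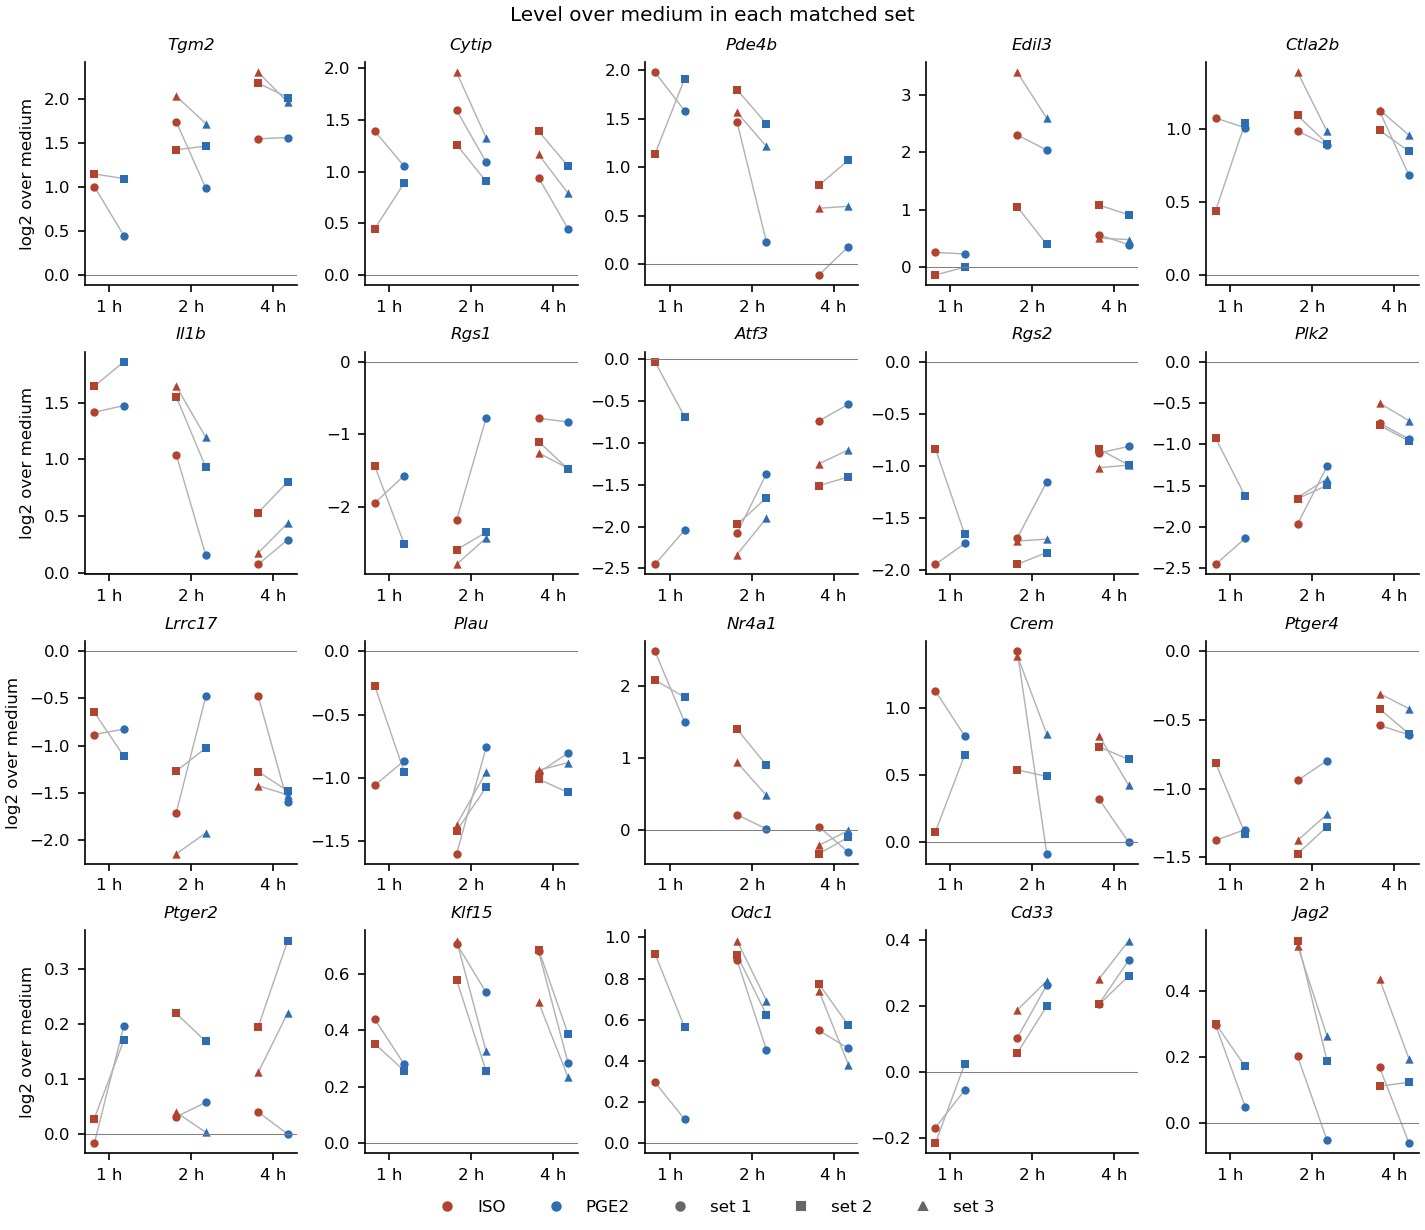
Level over medium (log2, vertical) at 1, 2 and 4 h for 20 named genes, ISO in red and PGE2 in blue, with a marker shape for each set number and a grey line joining the ISO and PGE2 values of a matched set. The ranges of the leading genes, each over 3 times, overlap between the ligands, nearly in full for Rgs2 (-1.94 to -0.83 with ISO, -1.83 to -0.81 with PGE2) and less for Plau (-1.60 to -0.27 and -1.11 to -0.76). Klf15 and Odc1, picked for a small unadjusted p of the difference, are higher with ISO in all 8 matched sets (adjusted p = 0.984 for each, limma).

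ISO minus PGE2 itself passed the threshold for 0 of 10474 genes (0%) with limma, with time and set number as blocks; 371 genes (3.54%) had an unadjusted p under 0.05, and the smallest adjusted p was 0.984. With each time and set as its own block the count was again 0, with 823 genes at an unadjusted p under 0.05 and a smallest adjusted p of 0.235. None of the 25 alternatives tried for this comparison gave a called gene, those without 1 h set 2 (595 genes unadjusted) and without 2 h set 1 (414) included. A further fit that pooled the spread with the LPS sets called 1 gene, Odc1, and is given with those sets. For 10361 genes (98.9%) the 95% interval of the difference lay inside 0.5 log2 on either side of 0, and for 10471 it lay inside 1, which is 2-fold, with 3 genes beyond. Without 1 h set 2 the first count was 10328, and without 2 h set 1 it was 10322. The median size of the difference was 0.039 log2 and the 95th percentile 0.139. The largest was 0.604, and 3 genes reached 0.5. Of the 1202 genes that passed for the mean of both ligands, 1185 had an interval inside 0.5 and all 1202 inside 1. Of the 63 with a mean response of at least 0.5, 53 lay inside 0.5 and all 63 inside 1. An interval around 0 does not show that the ligands acted alike on a gene, and for the genes with widely spread sets it still holds sizeable differences: that of Atf3 ran from -0.85 to 0.43 and that of Edil3 from -0.39 to 0.88. With each time and set as a block these intervals narrowed to -0.48 to 0.06 for Atf3 and 0.03 to 0.47 for Edil3 (adjusted p = 0.685 and 0.603). For Rgs2 the difference was 0.00 with an interval of -0.32 to 0.32, for Plk2 -0.01 (-0.36 to 0.34), and for Rgs1 -0.08 (-0.53 to 0.36). Tgm2 was 0.27 higher with ISO (0.07 to 0.46, higher in 6 of 8 sets) and Cytip 0.33 higher (0.005 to 0.64, 7 of 8 sets), each with an adjusted p of 0.984.

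**Figure D3:**
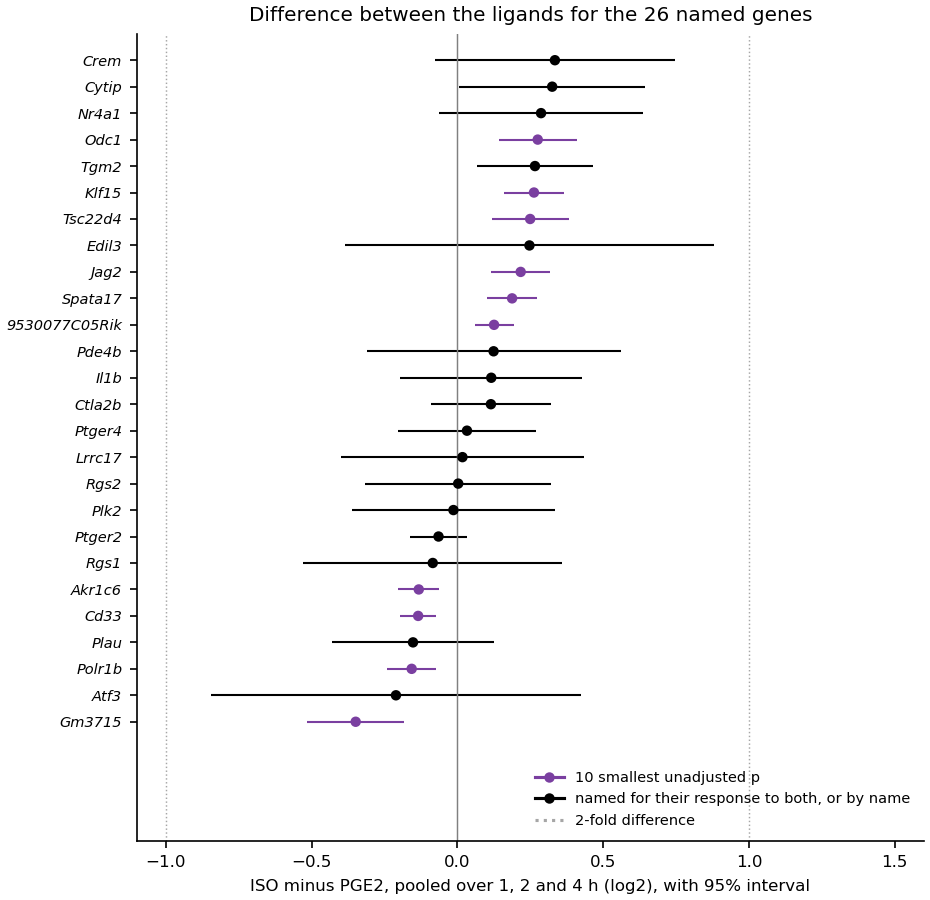
ISO minus PGE2 (log2, horizontal) pooled over 1, 2 and 4 h for the 26 named genes, with 95% intervals from limma; purple marks the 10 genes with the smallest unadjusted p and dotted lines mark a 2-fold difference. No interval reaches a 2-fold difference in either direction, and no gene passed the threshold.

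The 10 genes with the smallest unadjusted p are described here although none passed the threshold, each with an adjusted p of 0.984. They were picked for that p, so the number of sets that share a sign is a description. Klf15, a Krüppel-like transcription factor known from the control of glucose and amino acid metabolism, ran from 0.35 to 0.72 with ISO (median 0.63) and from 0.23 to 0.53 with PGE2 (median 0.28). In each of the 8 matched sets Klf15 was higher with ISO, although the 2 ranges overlapped. The Klf15 difference was 0.26 (0.16 to 0.37), or 1.20-fold, and both ligands raised the gene over medium (adjusted p = 5.51e-07 with ISO and 1.07e-04 with PGE2). Odc1 encodes ornithine decarboxylase, the rate-limiting enzyme of polyamine synthesis. It ran from 0.30 to 0.98 with ISO (median 0.83) and from 0.12 to 0.69 with PGE2 (median 0.51), and its difference was 0.28 (0.14 to 0.41), higher with ISO in 8 of 8 sets. The Notch ligand gene Jag2 was higher with ISO in 7 of 8 sets (0.33 against 0.11 pooled, difference 0.22, 0.12 to 0.32), and passed the threshold against medium with ISO but not with PGE2, a contrast whose own test is the difference just given. Spata17 (0.19, 8 of 8 sets), Tsc22d4 (0.25, 7 of 8 sets) and 9530077C05Rik (0.13, 8 of 8 sets) also lay higher with ISO. Tsc22d4 had a value other than 0 on all 16 arrays of each ligand, and Spata17 on 14 of each. For 9530077C05Rik this held on 12 ISO and 13 PGE2 arrays. It was exactly 0 in ISO 1 h set 1 and in PGE2 4 h set 1. The 2 probes of Tsc22d4 disagreed with PGE2, at -0.19 and 0.16 over medium, and gave differences of 0.39 and 0.11. On the other side Cd33, a sialic acid-binding receptor of myeloid cells, ran from -0.22 to 0.28 with ISO (median 0.15) and from -0.05 to 0.40 with PGE2 (median 0.27). Its difference was -0.13 (-0.20 to -0.07), lower with ISO in 8 of 8 sets. Cd33 was below or near medium at 1 h and above it at 4 h with both ligands, and the difference kept its sign at each time (-0.18, -0.13 and -0.11). Akr1c6, an aldo-keto reductase, and Polr1b, a subunit of RNA polymerase I, were lower with ISO in 8 of 8 sets by -0.13 and -0.16. Akr1c6 was exactly 0 in PGE2 4 h set 1. Gm3715 had the largest difference of the 10 (-0.35) and was lower with ISO in 7 of 8 sets. It had a value other than 0 on only 11 ISO and 14 PGE2 arrays, and was exactly 0 in ISO 1 h set 1. On the separate arrays with LPS the differences of Gm3715 (0.08), Tsc22d4 (-0.10) and Akr1c6 (0.03) had the other sign. The other genes of the 10 kept theirs.

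The receptors and the signalling chain were examined as lists; members named in this and the following paragraphs were chosen after their values were seen. The list counts stand against the shares over all genes tested, 4.1% higher and 3.9% lower with ISO and 2.16% higher and 1.78% lower with PGE2. Many of them moved as single sets were left out: list counts of 0 to 2 members in these paragraphs ran from 0 to 4, and for larger counts the sets that moved them by over 1.5 times are named. Of 8 measured prostanoid receptor genes, 1 was lower with ISO, and 1 was higher and 1 lower with PGE2; 0 differed between the ligands. The list's median difference was -0.01, against 0.00 over all genes tested. Ptger4 fell with both: its ISO sets ran from -1.47 to -0.31 (median -0.88) and its PGE2 sets from -1.33 to -0.42 (median -0.99). The 2 ranges of Ptger4 nearly coincided, its difference was 0.03 (-0.20 to 0.27), and the fall was 1.87-fold with ISO and 1.92-fold with PGE2. Ptger2 was 0.15 over medium with PGE2 (adjusted p = 0.0194) and 0.08 with ISO (adjusted p = 0.165), with a difference of -0.06 (-0.16 to 0.03). Its 3 probes disagreed: ISO minus PGE2 was -0.13, -0.15 and 0.08. Of 15 regulators of G protein signalling, 3 fell with each ligand (Rgs1, Rgs2 and Rgs16), and Rgs16 lay at -0.33 with ISO and -0.32 with PGE2. None of the 21 G protein subunits measured passed with either ligand, while 1 was higher with ISO without 1 h set 1, 1 h set 2 or 2 h set 1. Among 18 adenylyl cyclase and protein kinase A genes, 3 rose and 3 fell with ISO (16.7% each), and 1 rose and 2 fell with PGE2 (5.56% and 11.1%). Without 4 h set 2 or 4 h set 3 the number that rose with ISO was 1. Pkib, an inhibitor of protein kinase A, fell with both (-0.40 and -0.32), and the regulatory subunit gene Prkar1a rose with both (0.12 and 0.15). Of 12 phosphodiesterases 2 rose with each ligand, Pde4b and Pde8a (0.42 with ISO, 0.31 with PGE2).

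Among 30 measured targets of cAMP and CREB, 12 rose and 3 fell with ISO (40% and 10%), 10 rose and 3 fell with PGE2 (33.3% and 10%), and 0 differed between the ligands. The number higher with PGE2 was 6 without 2 h set 3 and 13 without 2 h set 1. The median over the list was 0.14 with ISO and 0.11 with PGE2, against 0.00 for each over all genes tested, and the median difference was 0.05. Nr4a1, an orphan nuclear receptor of the immediate early response, ran from -0.33 to 2.48 with ISO (median 0.57) and from -0.31 to 1.84 with PGE2 (median 0.25). It averaged 2.28 and 1.67 at 1 h, 0.85 and 0.46 at 2 h, and -0.17 and -0.14 at 4 h. The Nr4a1 order in time was the same with both ligands, and its difference was 0.29 (-0.06 to 0.64, ISO higher in 6 of 8 sets). Crem, which encodes CREB-related activators and repressors, ran from 0.08 to 1.42 with ISO (median 0.75) and from -0.09 to 0.80 with PGE2 (median 0.55). Crem passed with ISO (adjusted p = 0.00200) and not with PGE2 (adjusted p = 0.0918), while the difference, 0.33 (-0.08 to 0.75), did not pass. Cebpb, a transcription factor of myeloid gene expression, was 0.70 over medium with ISO and 0.50 with PGE2. Hilpda, a lipid droplet protein gene, was at 0.94 and 0.78, and Vegfa, the vascular growth factor gene, at 0.54 and 0.51. The 3 list members that fell with both were Atf3, Rgs2 and Il10 (-0.22 with ISO, -0.37 with PGE2), the last encoding an anti-inflammatory cytokine. In the 34 immediate early genes, 11 rose and 3 fell with ISO (32.4% and 8.82%) and 9 rose and 5 fell with PGE2 (26.5% and 14.7%). Without 1 h set 2 the number lower with ISO was 6, and without 2 h set 3 the number lower with PGE2 was 3. Ier3 was at 1.03 and 0.86, Arc at 0.71 and 0.58, and Myc at -0.87 and -0.93 with ISO and PGE2. Klf2, a transcription factor that keeps macrophages quiescent, fell with PGE2 (-0.29) and was at -0.05 with ISO, higher with ISO in 8 of 8 sets (difference 0.24, 0.07 to 0.41, adjusted p = 0.984).

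Inflammatory and metabolic lists followed the same arrangement. The list of NF-kB subunits and their feedback regulators had 19 measured members, of which 7 rose (36.8%) and 0 fell with each ligand. Their median was 0.12 with ISO and 0.06 with PGE2, and the median difference was 0.07. Nfkbie, an inhibitor of NF-kB, was at 0.85 with ISO and 0.59 with PGE2 (difference 0.26, 0.03 to 0.48), and the subunit gene Nfkb2 at 0.41 and 0.23, higher with ISO in 8 of 8 sets. Among 20 cytokine genes 5 rose and 1 fell with ISO (25% and 5%) and 4 rose and 1 fell with PGE2 (20% and 5%). Of 28 chemokine and chemokine receptor genes, 6 rose and 4 fell with ISO (21.4% and 14.3%), and 2 rose and 3 fell with PGE2 (7.14% and 10.7%). Without 2 h set 3 the number lower was 2 with ISO and 1 with PGE2, and without 2 h set 2 it was 1 with PGE2. The neutrophil chemoattractant gene Cxcl2 rose with both (0.50 and 0.44 as the mean of 2 probes, of which one was at 0.99 and 0.87 and the other exactly 0 with both ligands). The monocyte chemoattractant genes Ccl3 (-0.71 and -0.68) and Ccl4 (-0.72 and -0.73) fell with both. Among 34 macrophage surface receptor genes, 11 rose and 4 fell with ISO (32.4% and 11.8%) and 7 rose and 2 fell with PGE2 (20.6% and 5.88%). The ISO numbers were 6 and 2 without 4 h set 3, and 7 rose without 4 h set 2. The C-type lectin gene Clec4n was at 0.89 and 0.81, Clec4e at 0.87 and 0.73, and Csf2rb, the shared receptor chain for GM-CSF, rose with ISO (0.34) and was at 0.12 with PGE2. Pparg, a lipid-sensing nuclear receptor gene, fell with both by nearly the same amount (-0.43 and -0.44, difference 0.01, -0.08 to 0.09). Abca1, which exports cholesterol, rose by 1.04 with ISO and 0.76 with PGE2. In the 22 glycolysis and hypoxia genes, 5 rose with ISO (22.7%) and 7 with PGE2 (31.8%) and 0 fell, and without 1 h set 1 the number that rose with PGE2 was 4. Pfkfb3, an enzyme that raises the activator of phosphofructokinase, rose with PGE2 (0.29) and was at 0.07 with ISO, lower with ISO in 8 of 8 sets (difference -0.22, -0.36 to -0.08, adjusted p = 0.984). No list held a member past the threshold between the ligands. Over all genes tested 371 (3.54%) had an unadjusted p under 0.05 for the difference, and in these lists the count ran from 0 to 4. It was 4 of the 22 glycolysis and hypoxia genes and 4 of the 34 immediate early genes. Both are larger shares than over all genes, but so were those of several other lists. Examples are 2 of the 19 NF-kB genes and 2 of the 30 cAMP and CREB targets. Of the 20 cytokine and 28 chemokine genes 0 had such a p, and no set test was run.

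Responses were larger with ISO than with PGE2 in most matched sets, on the scale of the deposited ratios. With the sets scaled to one spread, 629 genes passed with ISO and 687 with PGE2, so the order of these counts turned. For the 1202 genes past the threshold for the mean of both, each turned to its own direction, the median response per set ran from 0.132 to 0.232 with ISO (median 0.145). With PGE2 it ran from 0.0944 to 0.185 (median 0.117). The ISO value was above the PGE2 value in 8 of 8 matched sets, by 0.00531 to 0.0549 log2, and 895 genes (74.5%) lay farther from medium with ISO. In the 63 genes with a mean of at least 0.5 the ISO median was larger in 6 of 8 sets. The exceptions were 1 h set 2, where it was 0.38 against 0.65, and 4 h set 2, where it was 0.72 against 0.75. All 3 sets at 2 h had the larger value with ISO (0.96 against 0.57, 0.94 against 0.69, and 1.14 against 0.81). A further 17 genes were chosen on separate arrays, by the test of the ligands given with LPS against LPS alone, a contrast whose labels also differ in lipid binding protein. Their median was larger with ISO in 7 of 8 sets, and 16 of the 17 lay farther from medium with ISO. The exception was again 1 h set 2 (0.065 against 0.256). The spread of the ISO sets about the fit was also larger, with a median residual SD over all genes of 0.104 for ISO and 0.0891 for PGE2, and its part in this result was not tested. No p is given for these medians, because the genes were chosen with results known.

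**Figure D4:**
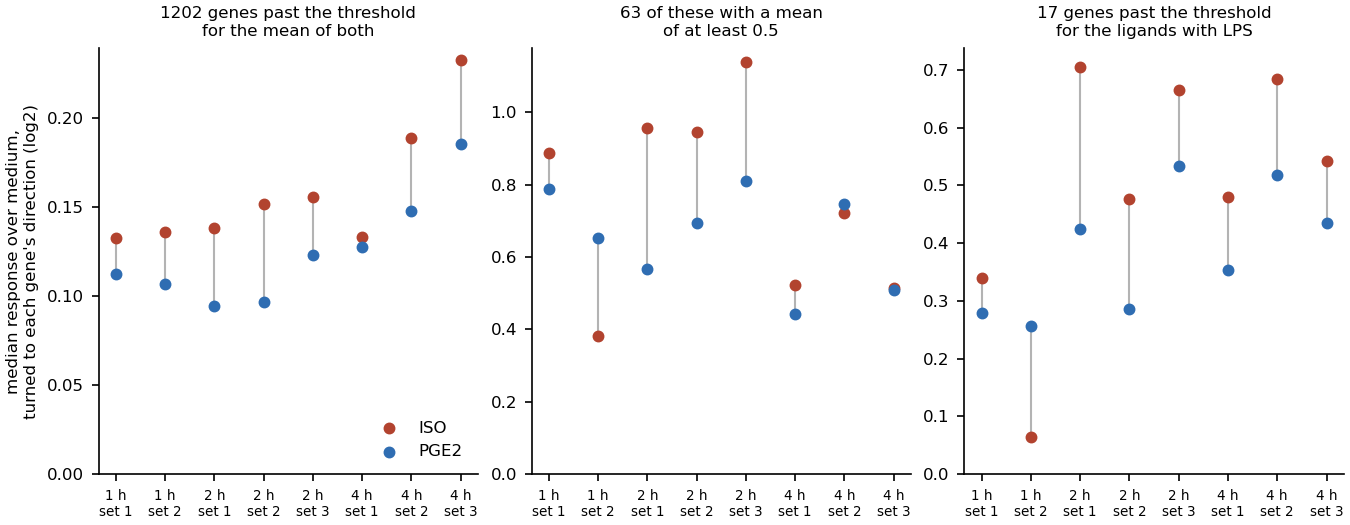
Median response over medium (log2, vertical, each gene turned to its own direction) in each of the 8 matched sets for ISO (red) and PGE2 (blue), over 1202 genes past the threshold for the mean of both ligands, the 63 of these with a mean of at least 0.5, and 17 genes chosen on the arrays with LPS. ISO lies above PGE2 in 8, 6 and 7 of 8 sets, and 1 h set 2 is below in the panels of 63 and 17 genes.

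The difference was also taken at each time. At 1 h, 2 h and 4 h limma called 0 genes (0%) each, with 447, 330 and 382 genes at an unadjusted p under 0.05. The F test of whether the difference changed between times called 0 genes (0%), with 349 at an unadjusted p under 0.05 and a smallest adjusted p of 0.999. The leading genes showed no single order. Pde4b was 0.65 higher with ISO at 2 h, and -0.19 at both 1 h and 4 h. Il1b was at -0.14, 0.65 and -0.25, and Rgs1 at 0.35, -0.67 and 0.21. In PGE2 2 h set 1, Rgs1 (-0.77), Pde4b (0.23) and Il1b (0.15) were nearer to medium than in the other 2 h sets, and this pair had the lowest dye-swap correlation. Its part in the 2 h values was not tested. Odc1 kept its sign at the 3 times (0.27, 0.34 and 0.22), as did Klf15 (0.13, 0.30 and 0.32).

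In the presence of LPS, on separate arrays at the same times and sets, LPS plus ISO minus LPS plus PGE2 was called for 0 genes (0%) with limma. There, 202 genes had an unadjusted p under 0.05, and the smallest adjusted p, that of Mt2, was 0.425. The difference of the ligand difference with and without LPS was called for 0 genes (0%; 202 at an unadjusted p under 0.05, smallest adjusted p 0.999). Averaged over sets with and without LPS, the ligand difference was called for 0 genes (0%; 315 unadjusted), with Klf15 and Cd33 at the smallest adjusted p of 0.104. Without set 1 the same fit called 2 genes, Klf2 (0.29, adjusted p = 0.0275) and Carhsp1 (-0.22, adjusted p = 0.0401). The calls changed when each time and set was a block, fitted to the sets with and without LPS together. In that fit 4 genes were lower with LPS plus ISO than with LPS plus PGE2, each in 8 of 8 sets. Tnfsf9, the ligand of the T cell co-stimulator 4-1BB, ran from 0.01 to 2.39 over medium with LPS plus ISO (median 1.13) and from 0.34 to 2.53 with LPS plus PGE2 (median 1.55). Its difference was -0.40 (-0.53 to -0.27, adjusted p = 0.0141). The ranges of Tnfsf9 overlapped widely, since they span 3 times, and the call rests on the matched sets. The metal-binding protein gene Mt2 differed by -0.23 (-0.29 to -0.17, adjusted p = 0.00200), Gpr84, a receptor for medium-chain fatty acids, by -0.22 (-0.28 to -0.16, adjusted p = 0.00406), and Tlr2, a receptor for bacterial lipoproteins, by -0.19 (-0.25 to -0.13, adjusted p = 0.0154). Without LPS the same 4 differences were -0.14, -0.05, -0.11 and -0.08, none past the threshold, and Tnfsf9, Gpr84 and Tlr2 were then lower with ISO in 7 of 8 sets and Mt2 in 6. In the same fit, 1 gene passed for ISO minus PGE2 without LPS, Odc1 (0.28, 0.20 to 0.35, adjusted p = 0.0107), where the spread is shared with the LPS sets. With LPS the Odc1 difference was 0.03 (-0.05 to 0.11), and its level over medium was 2.32 with LPS plus ISO and 2.29 with LPS plus PGE2. The mean over sets with and without LPS was called for 18 genes in this fit, 4 higher with ISO (Klf2, Klf15, Odc1 and Daxx) and 14 lower. Klf2 was higher with ISO in 8 of 8 sets without LPS and 8 of 8 with it (mean difference 0.22, 0.16 to 0.29, adjusted p = 0.00840), and Mllt11 was lower in all of them (-0.19, adjusted p = 0.0256). These calls did not hold up when sets were left out: without set 1, 2 of the 4 genes with LPS (Gpr84 and Mt2) and 3 of the 18 (Gpr84, Klf2 and Mllt11) were still called, and without set 2 or set 3 none was. All 18 kept their sign in each case, but they were chosen on these same sets, so this is a description and not a check. The adjusted p of Odc1 was then 0.0916 without set 1, 0.844 without set 2 and 0.0784 without set 3.

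**Figure D5:**
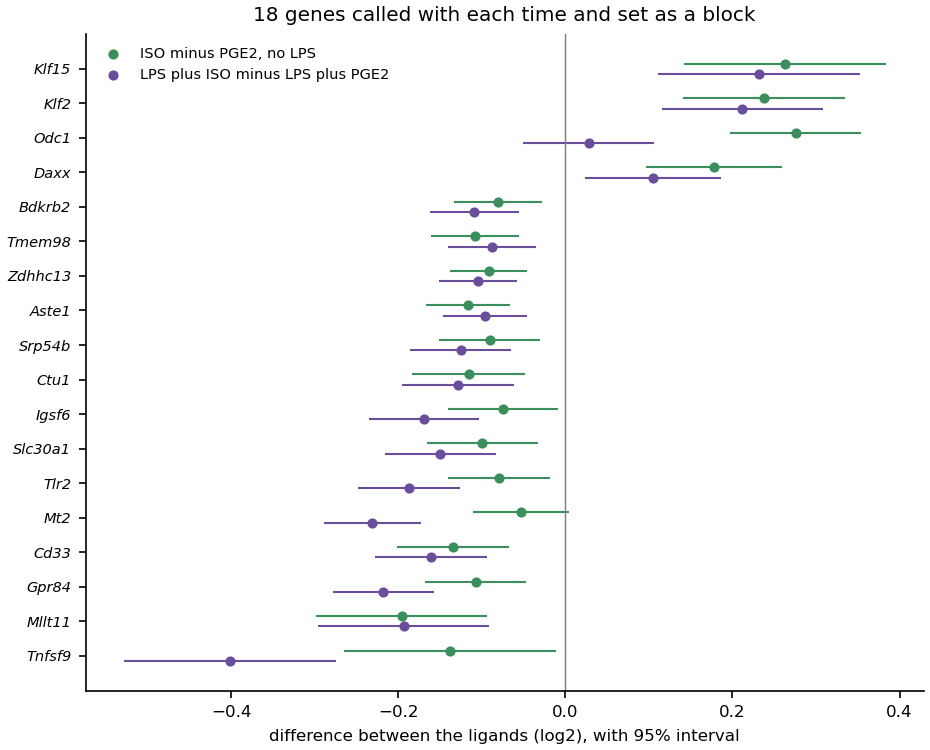
Difference between the ligands (log2, horizontal) with 95% intervals from the fit with each time and set as a block, without LPS (green) and with LPS (purple), for the 18 genes called for the mean of both. Klf15 and Klf2 are higher with ISO in both, Odc1 is at 0.28 without LPS and 0.03 with it, and Tnfsf9 is lowest with LPS (-0.40).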

How the data were processed

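RNA of treated RAW 264.7 cells was measured against RNA of medium cells on 2-colour arrays. The authors deposited 1 log ratio per probe and array; of scanner software, background correction and normalization the sources used here say nothing. The deposited values were taken as log2 ratios of Cy5 over Cy3, because their largest size (6.64) is log2 of 100, and were turned to treated over medium by the dye labels. Exact zeros, whose meaning is not stated, were kept. Of 16281 probes, 13738 had 1 symbol in the platform annotation and 13694 were found by Entrez ID. After leaving out 478 probes at 0 on every array, 13260 probes were averaged into 10518 genes, and 10474 had a value other than 0 on the 32 arrays.

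The 2 arrays of a set were averaged. limma 3.58.1 (R 4.3.3; statmod 1.5.0) was fitted with lmFit and eBayes to the 16 set means, with ligand, time and set number, two-sided, with Benjamini-Hochberg adjustment over all genes, a threshold of 0.05 and 95% intervals; the script was tested on simulated data. The set numbers count as pairing: same-numbered sets' deviations from their group means correlated above 0.1 in every pair (the 2 sets at 1 h mirror each other and share 1 value), and a fit with each time and set as a block is given where it changes a count. Arrays' number limits the precision.

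Named genes were the 10 smallest unadjusted p for ISO minus PGE2 (0 having passed), the 6 highest and 6 lowest by the mean of both ligands among genes past the threshold with each and of that sign in at least 7 of 8 sets, and, by name, Ptger2, Ptger4, Nr4a1, Crem, Pde4b and Rgs2; a further gene of the rule is not reported here. Parts of the rule for genes past the threshold by time, by LPS or within a list named none. The comparison, the lists and the tests were chosen with earlier results of these data known. Gene lists are described by counts and medians, without a set test. Promoters were matched by symbol: 8346 of the genes tested had one, and 7 of the 26 named genes (Gm3715, Tsc22d4, Tgm2, Edil3, Rgs1, Plau and Crem) had none. Alternatives covered zeros as missing, blocks, filters, centring, scaling, single dyes, probes and left-out sets; the mean of both ligands, the genes chosen on LPS arrays, the mean over sets with and without LPS, and list counts without single sets were added after seeing the data.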

Additional observations from a re-analysis of the deposited data

Results flagged for a closer look

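Among the 26 named genes, 4 had a matched set whose ISO minus PGE2 value stood far from the other 7; chance alone marks about 1 in 20 such groups of 8. In 3 of them the set was 1 h set 2, in which the ISO median over the 63 genes with a mean of at least 0.5 was 0.38, against 0.65 with PGE2; over the 1202 genes called for the mean it was 0.136, against 0.106. Cytip was at -0.44 there, with the nearest other set at 0.34. Ctla2b was at -0.60, with the nearest at 0.07. Atf3, which falls with both ligands, was at 0.65, with the nearest at -0.10. Gm3715 was at 0.19 in 2 h set 1, with the nearest at -0.26. The 4 genes did not pass the threshold between the ligands with or without these sets.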

How the results depend on the processing

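ISO minus PGE2 pooled over times gave 0 called genes under each of the 25 alternatives, and so did the differences at 1, 2 and 4 h and the F test between times under 7 each. The ISO count (838 in the text) was 1384 with each time and set as a replicate block, 2431 with treated RNA in Cy5 only and 1613 in Cy3 only, 441 without the 2 h sets and 297 without the 4 h sets. The PGE2 count (412) was 700 with the replicate block, 687 with sets scaled to one spread (629 for ISO, so the order turned), 1594 in Cy5 only and 1695 in Cy3 only, 152 without the 2 h sets and 140 without the 4 h sets. Leaving out a single set or a set number gave 310 to 1722 genes for ISO and 150 to 569 for PGE2. LPS plus ISO minus LPS plus PGE2 gave 4 genes with the replicate block in place of 0. The single-dye fits hold 1 array a set, so dye effects do not cancel in them. In the counts against medium, the replicate block takes spread shared by both ligands of a set out of the error. For the other changes in these counts the cause was not tested. The replicate block also moved the mean of both ligands against medium from 1202 to 1840 genes. Beyond that it changed only the mean over sets with and without LPS (18 genes) and Odc1 without LPS in the joint fit. With no such block, the mean over sets with and without LPS gave 2 genes without set 1. Of 800 values of named genes against medium under these alternatives, 753 kept direction and side of the threshold, 42 no longer passed, 4 newly passed and 1 moved; of 650 differences 638 stayed within the spread and 12 moved beyond it, and 0 reversed a called value. Zeros made up to 37.2% of an array's values, and genes near background cannot be told from unchanged ones by these ratios. The sets number 8 a side, 1 concentration of each ligand was used, and medium RNA may be shared between ligands within a set.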
